A study of Mus musculus with 42 samples.

Results

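The transcripts of 10 genes of the DNA damage checkpoint, Atm, Atr, Prkdc, Chek1, Chek2, Mdc1, Trp53bp1, Rnf8, Topbp1 and Brca1, were followed over 12 RNA-seq libraries of mouse cells sorted as spermatogonia. They were chosen by name with earlier results of these data known. Atm and Brca1 had already been named by the authors among genes down-regulated by the loss of Chd8 in c-Kit+ cells. Shares of the 10 genes set beside those of all genes are therefore descriptions, not tests. All 10 were found by gene ID among the 27179 genes of the count table. The libraries came from testes of C57BL/6J males at 10 dpp (days after birth), with 3 libraries in each of 4 groups. Control animals were Ddx4-Cre/Chd8+/F and mutant animals Ddx4-Cre/Chd8F/-, so that every animal carried the Ddx4-Cre driver, which acts in germ cells, and a floxed Chd8 allele, and the controls kept a wild-type allele while the mutants carried a null allele beside the floxed one. Chd8 encodes a chromatin remodeler of the CHD family. c-Kit+ cells, sorted as differentiating spermatogonia, were taken first on magnetic beads. Thy1+ cells, sorted as undifferentiated spermatogonia, were taken from what the c-Kit beads did not retain. The libraries also held markers of somatic cells, whose summed level was higher in Thy1+ than in c-Kit+ cells (given further on). Most of this sum came from stromal markers, and the Leydig and mast cell markers were lower in Thy1+ cells. The cells of an analysis came from the testes of 3 male pups, and whether these were pooled or kept apart is not given in the sources used here.

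The proteins form a relay. ATM, ATR and DNA-PKcs (the product of Prkdc) are large kinases of the PI3K-like family that are switched on at DNA ends or at single-stranded DNA. MDC1 binds phosphorylated histone H2AX and brings in the ubiquitin ligase RNF8, whose marks recruit 53BP1 (Trp53bp1) and BRCA1, and TOPBP1 activates ATR. CHK1 (Chek1) and CHK2 (Chek2) are the kinases that carry the signal to the cell cycle machinery. In spermatogenesis the same proteins serve the replication of dividing spermatogonia and then the programmed breaks of meiosis, where ATR, TOPBP1, BRCA1 and MDC1 are also known for the silencing of the unpaired sex chromosomes.

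The start regions of the genes that fell furthest and of the genes that did not pass the FDR threshold in mutant c-Kit+ cells are shown for comparison. Each line gives the 200 bases before the RefSeq transcription start on the plus strand of GRCm38.p6 (the same assembly as mm10, used for the counts), chr17:35841298-35841497 for Mdc1, chr9:95857397-95857596 for Atr, chr17:29614589-29614788 for Rnf8 and chr5:110839783-110839982 for Chek2. Capitals mark matches, on either strand, of the E2F site core TTTNNCGC. They also mark the ETS core, spelled CCGGAA, and the box known as CCAAT. The last motifs marked were the core of a CRE site, TGACGT, and the GC box, which reads GGGCGG.
Mdc1: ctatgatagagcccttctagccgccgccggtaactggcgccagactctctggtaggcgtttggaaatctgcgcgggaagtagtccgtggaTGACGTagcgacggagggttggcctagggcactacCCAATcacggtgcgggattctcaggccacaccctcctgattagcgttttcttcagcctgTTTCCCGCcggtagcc
Atr: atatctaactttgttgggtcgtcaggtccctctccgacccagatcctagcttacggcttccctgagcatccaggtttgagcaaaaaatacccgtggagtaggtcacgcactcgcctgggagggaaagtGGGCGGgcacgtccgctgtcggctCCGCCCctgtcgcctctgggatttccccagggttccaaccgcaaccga
Rnf8: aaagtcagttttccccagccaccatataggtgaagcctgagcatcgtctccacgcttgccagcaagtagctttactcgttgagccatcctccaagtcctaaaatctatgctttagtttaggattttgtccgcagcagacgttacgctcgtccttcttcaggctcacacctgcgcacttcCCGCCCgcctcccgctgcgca
Chek2: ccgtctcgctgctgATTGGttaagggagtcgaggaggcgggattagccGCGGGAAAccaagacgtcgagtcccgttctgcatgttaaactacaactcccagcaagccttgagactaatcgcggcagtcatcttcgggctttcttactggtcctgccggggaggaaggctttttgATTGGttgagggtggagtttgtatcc
Over windows from 250 bases before to 50 bases after the start, which RefSeq gave for 9 of the 10 genes, TTTNNCGC was found in Mdc1, Chek2 and Topbp1 and in 5.27% of 27025 promoters. CCGGAA was found in Atm, Atr, Topbp1 and Brca1 (15.2% of all promoters), CCAAT in 5 of the 9 (37.9%), TGACGT in Mdc1, Trp53bp1 and Brca1 (7.65%), and GGGCGG in 6 of the 9 (35.9%). The 4 genes with CCGGAA were all among the 6 genes called lower in mutant c-Kit+ cells (given further on), but Mdc1, which fell furthest, had no match. The share of CCGGAA among all genes called lower was not counted. Each of the other motifs stood both in called genes and in genes not called (Chek2, Rnf8 or Trp53bp1). In Atm and Atr the CCGGAA match lay after the start, from base 10 and base 8, and no printed stretch holds this motif. The comparison with the calls was made after the values had been seen. The motif matches were not tested, and none of them overlapped another in the printed stretches.

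All 10 genes were read deeply, with at least 487 counts (Chek2) and up to 17158 counts (Atm) in a library, out of totals from 32266861 to 45396233 counts, and all passed the filter on low counts in each comparison. Levels are given as CPM after TMM normalization over the 12 libraries, and in the text 3 values in a row are replicates 1, 2 and 3. Thy1 had 0.436 to 1.07 CPM in c-Kit+ and 11.7 to 17.1 CPM in Thy1+ libraries, while Kit ranged from 626 to 781 CPM in the former and from 171 to 432 CPM in the latter. Chd8 had 258 to 315 CPM in all 12 libraries. The deletion removes only a few of its exons, so the whole-gene count does not check the genotype labels.

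Compared per kilobase of exon, which allows one gene to be set against another, the control c-Kit+ cells held most of Topbp1 (52.5 ± 6.43 CPM per kb, SD, n = 3), Atr (48.6 ± 10.4) and Mdc1 (41.3 ± 9.42). Trp53bp1 (37.8 ± 1.99), Rnf8 (37.2 ± 3.08), Atm (35.4 ± 5.49) and Brca1 (30.9 ± 2.47 CPM per kb) followed. None of these 7 genes differed from the next one in the order by more than the larger of their SDs. A step beyond the spread separated Brca1 from Prkdc (22.4 ± 1.19) and Chek1 (20.7 ± 2.04), and another one Chek1 from Chek2 (10.1 ± 0.454 CPM per kb), which was the lowest in each of the 4 groups.

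The order was different in mutant c-Kit+ cells. Topbp1 (35.6 ± 1.43 CPM per kb), Rnf8 (33.9 ± 0.160) and Trp53bp1 (32.2 ± 1.40) came first. Atr (24.9 ± 0.904) stood in the fourth place and Mdc1 (17.2 ± 1.49 CPM per kb) in the eighth, against the second and the third place in the controls. An order of genes within a library does not depend on how libraries are scaled to each other.

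**Figure D1:**
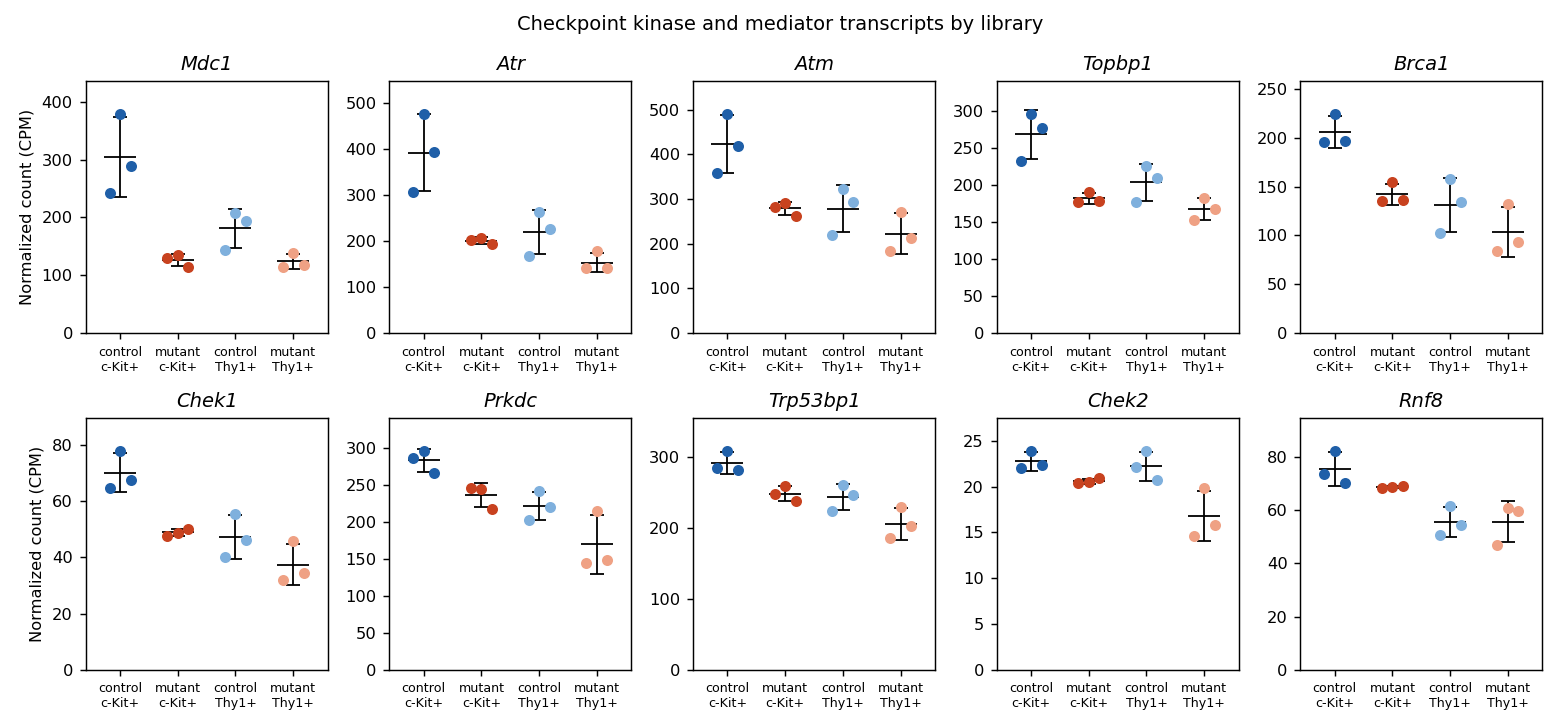
Normalized count (CPM, linear axis from 0, a scale of its own for each gene) of the 10 genes in the 12 libraries; points are replicates 1 to 3 from left to right, and the bars give the mean and SD of 3 libraries. The 3 mutant c-Kit+ libraries lay below the 3 control c-Kit+ libraries for each of the 10 genes, whereas in Thy1+ cells only Mdc1 and Chek2 showed no overlap.

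The first question was how the loss of CHD8 bears on these transcripts in c-Kit+ cells. The loss went with lower levels of 6 of the 10 genes, Mdc1, Atr, Atm, Topbp1, Brca1 and Chek1, by the quasi-likelihood test of edgeR with an FDR below 0.05 and a log2 fold change beyond 0.5 either way. None was called higher. Of all 17134 genes tested, 7.41% were called lower and 14.8% higher. The 10 genes had a median log2 fold change of −0.59 and all tested genes one of 0.01, and the groups did not overlap for 10 of the 10 genes, all lower in mutants, against 20.6% of all genes. At an FDR below 0.05 alone 8 of the 10 passed, against 18.3% of all genes.

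Among the kinases that start the relay, Atr had 308, 476 and 393 CPM in the c-Kit+ controls against 203, 207 and 193 CPM in the mutants. Atm had 359, 491 and 419 CPM in the controls against 283, 292 and 263 CPM in the mutants. Prkdc had 287, 297 and 267 CPM in the controls against 246, 245 and 217 CPM in the mutants. The groups were apart for all 3 genes, with control replicate 2 the highest library each time and the mutants of Atr close together. Their log2 fold changes were −1.02 for Atr (SE 0.13, FDR = 0.000372), −0.66 for Atm (SE 0.10, FDR = 0.000853) and −0.32 for Prkdc (SE 0.07, FDR = 0.00452), the last one past the FDR threshold but short of the minimum fold.

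Of the mediators, Mdc1, the adaptor at phosphorylated H2AX, fell furthest, from 243, 379 and 289 CPM to 131, 135 and 114 CPM, a log2 fold change of −1.32 (SE 0.14, FDR = 0.000214). Topbp1, the activator of ATR, went from 232, 296 and 278 CPM to 177, 190.3 and 179 CPM (−0.62, SE 0.09, FDR = 0.000589). Brca1, which promotes repair by recombination, went from 195, 225 and 197 CPM to 135, 155 and 136 CPM (−0.59, SE 0.08, FDR = 0.000475). The lowest control library of each of these genes lay above the highest mutant library.

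Trp53bp1, whose product protects broken ends from resection, had 284, 309 and 281 CPM in the controls against 248, 259 and 237 CPM in the mutants. Its log2 fold change of −0.29 (SE 0.06, FDR = 0.00483) passed the FDR threshold but not the minimum fold. Rnf8 had 73.9, 82.5 and 70.4 CPM in the controls against 68.5, 68.7 and 69.1 CPM in the mutants, a log2 fold change of −0.19 (95% interval −0.36 to −0.03, FDR = 0.0651). The controls of Rnf8 thus ended only just above the mutants, and the gene was not called. It passed FDR under 0.05, though not the minimum fold, when 1 of the 6 libraries was left out, where the FDR ran from 0.0487 to 0.188.

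The 2 transducer kinases differed in size. Chek1 had 64.9, 78.0 and 67.7 CPM in the controls against 47.7, 48.8 and 50.1 CPM in the mutants, which is −0.58 on the log2 scale (SE 0.08, FDR = 0.00066). Chek2 had 22.0, 23.9 and 22.4 CPM in the controls against 20.4, 20.5 and 20.9 CPM in the mutants, with a log2 fold change of −0.20 (95% interval −0.41 to −0.00, FDR = 0.103). Its groups did not overlap but lay close to each other.

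These falls went together with a change in the make-up of the libraries. Of 8 markers of early meiotic prophase, 8 were called lower in mutant c-Kit+ cells (log2 fold changes from −3.69 to −1.36), and their summed level was 803 to 1401 CPM in the controls against 343 to 383 CPM in the mutants. Of 6 markers of differentiating spermatogonia 2 were called lower, with sums of 1536 to 1733 CPM in the controls and 1307 to 1505 CPM in the mutants. Of 8 markers of proliferating cells 2 were called lower and none higher. Their sums were 2491 to 2912 CPM in the controls and 2035 to 2177 CPM in the mutants. Of 6 tested markers of undifferentiated spermatogonia 1 was called higher and none lower. Of 11 general germ cell markers 1 was called lower, and their median log2 fold change was −0.29 (sums of 3371 to 4042 CPM in the controls against 2765 to 3242 CPM in the mutants). At an FDR below 0.05 alone, 7 of these 11 were lower, against 18.3% of all genes. So were 5 of the 6 markers of differentiating spermatogonia and 5 of the 8 of proliferating cells, with none higher on these lists. Of 41 tested markers on 8 lists of somatic testis and blood cells, 27 were called higher and none lower, with sums of 3005 to 3488 CPM in the controls against 5268 to 6821 CPM in the mutants; 1 of the 46 markers matched, on the erythroid list, was at 0 in the control c-Kit+ libraries. In whole populations of cells, fewer cells of a type and less RNA per cell cannot be told apart. The part of these marker changes in the falls of the 10 genes was not tested.

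When the libraries were scaled to the germ cell markers in place of TMM, the median of all genes moved to 0.33 and that of the 10 genes to −0.26. Mdc1 (−0.99, SE 0.12, FDR = 3.7e-05) and Atr (−0.69, SE 0.12, FDR = 0.000331) were still called, against 2.82% of all genes called lower and 29% higher. Atm (−0.33, FDR = 0.0191) and Topbp1 (−0.29, FDR = 0.0463) passed the FDR threshold only, which 3.65% of all genes passed in that direction. Brca1 (−0.27, FDR = 0.0561) and Chek1 (−0.25, FDR = 0.143) did not pass it, and Prkdc, Trp53bp1, Rnf8 and Chek2 lay between 0.00 and 0.14.

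**Figure D2:**
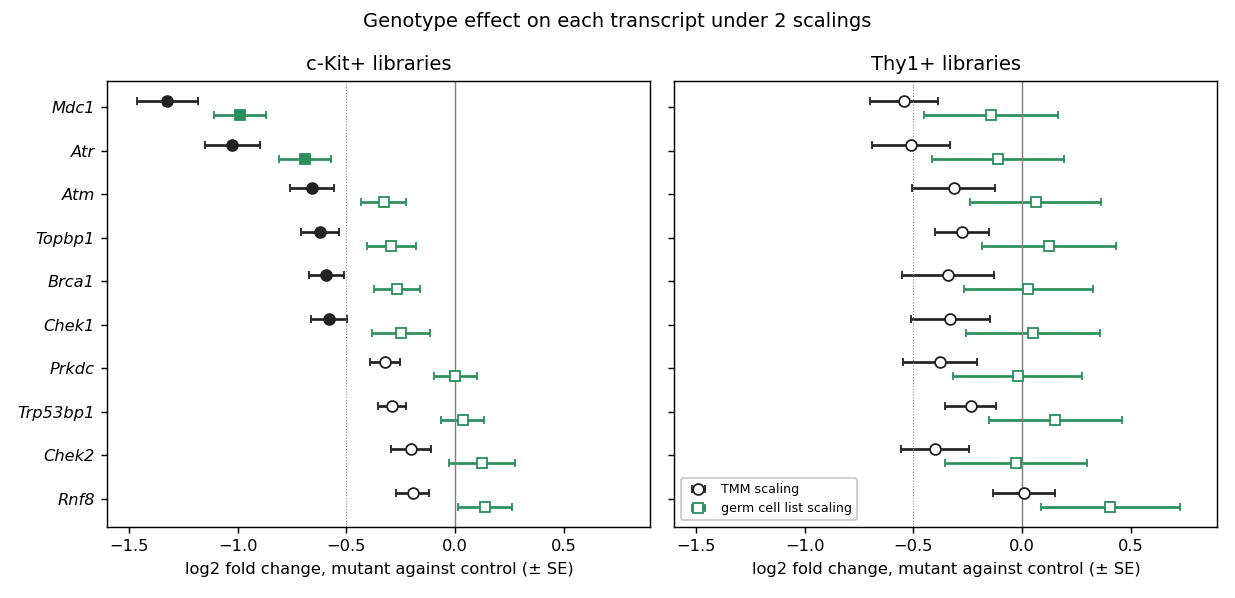
Log2 fold change of mutant against control libraries (x axis, ± SE) for the 10 genes in c-Kit+ (left) and Thy1+ cells (right), with TMM scaling (black circles) and scaling to 11 germ cell markers (green squares); filled symbols passed both thresholds (FDR below 0.05, log2 fold change beyond 0.5 either way), and the dotted line marks −0.5. In c-Kit+ cells, Mdc1 and Atr were called under both scalings, and in Thy1+ cells no symbol is filled.

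Ratios between a pair of genes in the same library do not depend on the scaling between libraries. The 4 pairs below were chosen after the values had been seen. In each, the gene that fell more in c-Kit+ cells stands over the one that fell less. A lower ratio in those mutants thus follows from the choice and is a description, not a test. Besides, 3 libraries against 3 cannot give an exact permutation p (two-sided) below 0.1, which is 0.16 after Benjamini-Hochberg adjustment over 8 tests. Mdc1 had 3.28 to 4.59 counts for each count of Rnf8 in control and 1.65 to 1.96 in mutant c-Kit+ libraries. In Thy1+ libraries this ratio was 2.83 to 3.53 in controls and 1.98 to 2.45 in mutants, so the groups were apart in both populations.

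Atr had 0.856 to 0.971 counts for each count of Atm in control and 0.708 to 0.733 in mutant c-Kit+ libraries. Chek1 had 2.95 to 3.26 counts for each count of Chek2 in controls and 2.34 to 2.4 in mutants. Brca1 had 0.688 to 0.727 counts for each count of Trp53bp1 in controls and 0.543 to 0.598 in mutants. These 3 ratios were lower in each mutant c-Kit+ library than in each control (exact permutation p = 0.1, adjusted p = 0.16, two-sided), whereas in Thy1+ libraries the groups overlapped for all 3.

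**Figure D3:**
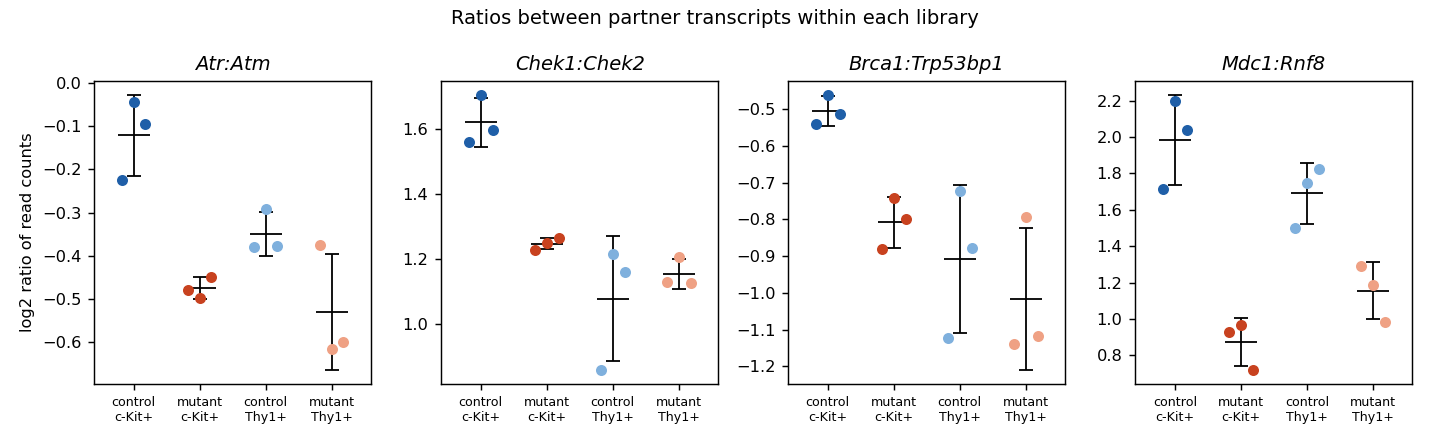
Log2 ratio of the counts of 2 genes in the same library (y axis, a scale of its own for each pair) in the 4 groups; points are replicates 1 to 3 from left to right, and the bars give the mean and SD of 3 libraries. The Mdc1:Rnf8 ratio was lower in mutant than in control libraries in c-Kit+ and in Thy1+ cells, and the other ratios were apart only in c-Kit+ cells.

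In Thy1+ cells none of the 10 genes was called in edgeR (quasi-likelihood), as none of the 17416 genes tested was (0% in either direction). DESeq2 and the edgeR exact test, which called other genes there, also called 0 of the 10. Of the 10, 9 had a negative log2 fold change, with a median of −0.34 against 0.02 for all genes, and 3 of the 10, Mdc1, Atr and Chek2, had an unadjusted p under 0.05, as did 7.69% of all genes with a negative value.

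Mdc1 had 143, 208 and 193 CPM in the Thy1+ controls against 115, 139 and 118 CPM in the mutants (log2 fold change −0.54, SE 0.16, FDR = 0.298). Chek2 had 22.1, 23.9 and 20.7 CPM in the controls against 14.6, 19.9 and 15.8 CPM in the mutants (−0.40, SE 0.16, FDR = 0.376). In both genes the mutants lay below the controls without overlap, as 10.7% of all genes did. Atr had 168, 263 and 226 CPM in the controls against 141, 177 and 141 CPM in the mutants (−0.51, SE 0.18, FDR = 0.347), so that mutant replicate 2 reached above control replicate 1. The other 7 genes overlapped as well, with log2 fold changes from −0.38 (Prkdc) to 0.01 (Rnf8).

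In both genotypes, replicate 2 was the highest Thy1+ library for each of the 10 genes. Libraries of the same number deviated together in the Thy1+ cells, and once the replicate number was blocked, 9 of the 10 genes passed FDR under 0.05, all lower in mutants (13.6% of all genes passed in that direction). Of these, only Mdc1 passed the minimum fold (−0.53, SE 0.07, FDR = 2.7e-05), where 4.92% of all genes were called lower. Atr came next (−0.50, SE 0.07, FDR = 6.4e-05), just short of the minimum. Rnf8 stood at 0.00 (SE 0.07, FDR = 0.970).

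Marker lists were also followed here. The 7 markers of undifferentiated spermatogonia, the cells the Thy1+ sort is meant to take, had a summed level of 451 to 673 CPM in the controls and 332 to 376 CPM in the mutants, with a median log2 fold change of −0.85, and none was called without and 6 lower with the block. The 8 markers of early meiotic prophase had a summed level of 344 to 646 CPM in the Thy1+ controls against 199 to 329.7 CPM in the mutants, none of them called without and 8 with the block. Of 6 markers of differentiating spermatogonia none was called without and 2 lower with the block. None of the 8 markers of proliferating cells was called either way. The summed level of 46 somatic markers was 11944 to 15473 CPM in the controls and 13514 to 20639.7 CPM in the mutants, and 0 of 43 tested were called without and 8 higher with the block. The summed germ cell markers had 2115 to 3154 CPM in the controls against 1614 to 2730 CPM in the mutants. Scaled to them, the median of the 10 genes was 0.04 and that of all genes 0.43, and only 4 of the 10 (Mdc1, Atr, Chek2 and Prkdc) had a negative value, from −0.14 to −0.02. The part of the marker changes was not tested.

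Whether the effect of the genotype differed between the populations was asked with an interaction term over the 12 libraries. Without a replicate block no gene of the 10 passed FDR under 0.05, and 0 of 18002 genes did (0% in either direction). DESeq2 also called 0 of the 10. The difference, c-Kit+ minus Thy1+, was −0.72 for Mdc1 (SE 0.23, FDR = 0.397), −0.45 for Atr (SE 0.24, FDR = 0.562) and −0.28 for Atm (SE 0.23, FDR = 0.734). Mdc1 was the only one of the 10 with an unadjusted p under 0.05, against 1.81% of all genes in that direction.

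The populations themselves were then compared, as Thy1+ minus c-Kit+. In controls, 5 of the 10 genes were called lower in Thy1+ cells, Atr (log2 difference −0.82, SE 0.19, FDR = 0.0111), Mdc1 (−0.72, SE 0.18, FDR = 0.0153), Brca1 (−0.62, SE 0.14, FDR = 0.0112), Atm (−0.58, SE 0.16, FDR = 0.0198) and Chek1 (−0.55, SE 0.13, FDR = 0.0137). Of all 17350 genes 7.08% were called lower and 20.7% higher. For 9 of the 10 genes, all but Chek2, the highest Thy1+ control lay below the lowest c-Kit+ control, against 24.8% of all genes. Rnf8 (−0.42), Topbp1 (−0.37) and Prkdc (−0.33) passed the FDR threshold only (13.6% of all genes passed it in that direction), and Trp53bp1 had −0.24 (FDR = 0.06). Chek2 had 22.2 ± 1.59 CPM in Thy1+ controls and 22.8 ± 1.02 CPM in c-Kit+ ones (SD, n = 3), a log2 difference of −0.01 (95% interval −0.27 to 0.25).

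With the replicate number blocked, the same 5 genes were called lower in Thy1+ controls, with FDR from 2.0e-05 (Atr) to 0.00091 (Chek1). Over all genes 1454 of 17350 were then called lower. FDR under 0.05 was passed by 9 of the 10 genes, Trp53bp1 among them (FDR = 0.0206), and by 3286 of 17350 genes in that direction. In the fit without the block, the calls changed when single libraries were left out. Without control Thy1+ replicate 1 only Atr and Mdc1 were called, where 972 of 17639 genes were called lower. Without control c-Kit+ replicate 2 only Atr and Brca1 were called, where 625 of 17710 genes were called lower. The markers of early meiotic prophase were all called lower in Thy1+ controls (8 of 8, median −1.11), and of 42 somatic markers 20 were called higher and 9 lower. The lower ones were 5 Leydig cell and 4 mast cell markers, and no Sertoli cell marker was called. Lower calls also took in 5 of 8 markers of proliferating cells (median −0.50), 5 of 6 of differentiating spermatogonia (−1.08) and 5 of 11 general germ cell markers (−0.36). All 7 markers of undifferentiated spermatogonia were called higher (median 2.65). The part of these marker differences in those of the 10 genes was not tested. With scaling to the germ cell markers the median of all genes moved to 0.47, 0 of the 10 were called by edgeR and Atr had the lowest value (−0.39, FDR = 0.135). In that scaling 0.692% of all genes were called lower.

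In mutants 0 of the 10 genes were called between the populations (5.03% of 17346 genes were called lower and 15.3% higher). DESeq2 and the edgeR exact test called 0 as well, and 6 of the 10 had a negative value with an unadjusted p under 0.05, as did 18.1% of all genes. Atr had 153 ± 21.1 CPM in Thy1+ mutants and 201 ± 7.30 CPM in c-Kit+ ones (SD, n = 3) and passed the FDR threshold only (−0.35, SE 0.11, FDR = 0.0432), as 8.84% of all genes did in that direction. Mdc1 had 115, 139 and 118 CPM in the former and 131, 135 and 114 CPM in the latter, with a log2 difference of 0.01 (95% interval −0.23 to 0.26), and its groups overlapped. Mutant Thy1+ replicate 2 was above the other mutant Thy1+ libraries for each of the 10 genes. Without it Prkdc (−0.63), Brca1 (−0.63) and Chek1 (−0.50) were called lower in Thy1+ cells. Over all genes, 1788 of 17604 were then called lower, against 872 of 17346 with all libraries.

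The partners of these proteins were followed on 9 lists with 54 matched genes of 55 listed. In c-Kit+ cells 8 of the 54 were called lower and 1 higher, where 7.41% of all genes were called lower and 14.8% higher, with a median log2 fold change of −0.20 against −0.59 for the 10 genes. All 5 BRCA1 partners passed FDR under 0.05. Brca2, which acts in repair by recombination and was the partner with the highest level, went from 305 ± 65.4 to 174 ± 12.6 CPM (log2 fold change −0.87, SE 0.13, FDR = 0.000732). The helicase Brip1 (−0.73, SE 0.12) and Bard1, which forms the ubiquitin ligase with BRCA1 (−0.52, SE 0.09), were also called, whereas Palb2 (−0.30) and Rbbp8 (−0.38) missed the minimum fold.

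Of 6 replication checkpoint mediators, Timeless (from 127 ± 12.0 to 82.9 ± 3.16 CPM, log2 fold change −0.67, SE 0.08) and its partner Tipin (from 128 ± 11.3 to 81.6 ± 7.09 CPM, −0.71, SE 0.09), which protect the replication fork, were called. Claspin (Clspn), the adaptor through which ATR reaches CHK1 and the highest of its list, stood at −0.42 (SE 0.09, FDR = 0.00471) and missed the minimum fold. Of 9 genes that activate ATR only Hus1b, a paralog of the clamp subunit HUS1, was called (−1.55, SE 0.25), at a low level of 3.77 ± 0.894 CPM in the controls against 1.34 ± 0.146 CPM in the mutants. The highest of that list, the clamp loader Rad17, had −0.10 (FDR = 0.344).

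Downstream of RNF8, Uimc1 (the ubiquitin reader RAP80) was called lower (−0.54, SE 0.10) and Brcc3, the deubiquitinase of the same complex, was called higher (0.64, SE 0.09, FDR = 0.00076). The ligase Herc2, the highest of the list, had −0.33 (FDR = 0.0133). Of the 5 effectors of 53BP1, Mad2l2 (the shieldin subunit REV7) was called lower, at −0.50 (SE 0.09) just past the minimum fold, and Rif1, the highest, had −0.21 (FDR = 0.051).

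No gene was called on the other lists. Rad50, the highest of the 4 break sensors, had −0.10 (FDR = 0.316). Xrcc6 (Ku70), which brings DNA-PKcs to ends and was the highest of 7 end-joining genes, had −0.33 (SE 0.06, FDR = 0.00187). Wee1, the kinase that holds CDK1 and the highest of 7 checkpoint effectors, had −0.09 (FDR = 0.382), and Smg1, the highest of the other PI3K-like kinases, had −0.42 (SE 0.07, FDR = 0.000979). With scaling to the germ cell markers, 2 of the 54 were called lower, Hus1b (−1.21) and Brca2 (−0.53), and 3 higher, Brcc3 (0.97), Dclre1c (0.58) and Trrap (0.57), where 2.82% of all genes were called lower and 29% higher. Palb2, Rbbp8, Dclre1c and Trrap were named after their values had been seen. In Thy1+ cells 0 of the 54 were called in edgeR (quasi-likelihood), with 6 at an unadjusted p under 0.05, all of them negative (7.69% of all genes in that direction), and 3 called lower with the block (4.92% of all genes), a share near that of all genes.

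**Figure D4:**
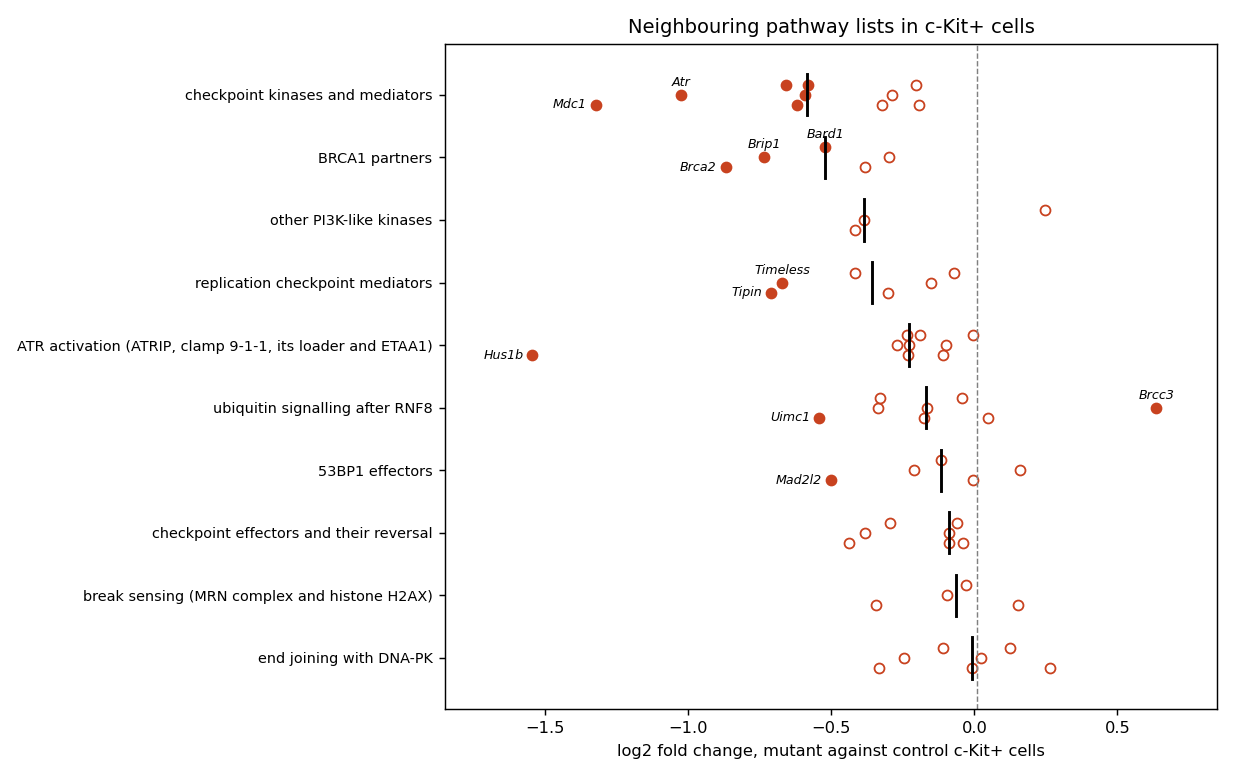
Log2 fold change in c-Kit+ cells (x axis) of the 10 genes and of 54 genes on 9 lists of their partners, 1 point per gene; filled points passed both thresholds (FDR below 0.05, log2 fold change beyond 0.5 either way), black bars are list medians and the dashed line is the median of all 17134 genes tested. The medians run from −0.59 for the 10 genes to −0.01 for end joining with DNA-PK, and Brcc3 is the only filled point above 0.

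Genes that start within 1 kb of a member on the other strand were listed after the values had been seen. Npat, which starts 376 bases from Atm, was called with it in c-Kit+ cells (−0.69, SE 0.10, FDR = 0.000734). Nbr1, 152 bases from Brca1, was not (−0.12, SE 0.06, FDR = 0.145). Mcm4, 466 bases from Prkdc, had −0.22 (FDR = 0.0321), and Hscb, 240 bases from Chek2, had −0.08 (FDR = 0.555), both short of the minimum fold like the members they face. The counts took no account of strand, and 649 of the 8074 exonic bases of Atr (chromosome 9, 95857597 to 95951644) and 384 of the 7711 of Trp53bp1 (chromosome 2, 121196727 to 121271386) also belong to genes on the other strand, and 18 of the 7352 of Mdc1 (chromosome 17, 35841498 to 35859670). The remaining 7 members share no exonic base with another gene of the table.

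For each member the 2 genes with the most similar profile were found as those with the smallest root mean square difference in log2 CPM over the 12 libraries, after the mean of each gene was subtracted, among the 13622 genes whose log2 CPM averaged 1 or more. Topbp1 was matched most closely, by Txndc16 (0.03) and Myo9a (0.05), and Trp53bp1 by Wdr48 and Wdr77 (both 0.04). Chek1 was nearest to Lig1 (0.04) and Sfmbt1 (0.05), Brca1 to Cdc45 and Angel1 (both 0.05), and Atm to Ncapg2 (0.05) and Casp8ap2 (0.06). Mdc1 had no match as close, with Yy2 and Fnip1 at 0.11, and Atr came second to it with Iqcb1 and Ythdc2 (both 0.09). These differences were not set against the spread of each gene itself over the libraries. That spread (root mean square) was largest for Mdc1 (0.55) and Atr (0.53), against 0.20 for Trp53bp1, 0.21 for Chek2 and 0.23 for Rnf8. The values therefore do not rank the genes by closeness relative to their own spread. Prkdc was nearest to Usp34 and Herc2 (both 0.06), Chek2 to Csnk1g1 (0.06) and Ccdc6 (0.07), and Rnf8 to Kif3a and Ndufa9 (both 0.07). Within the 10, Chek1 and Brca1 were most alike (0.08) and Mdc1 and Rnf8 least (0.46).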

How the data were processed

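Of 42 samples, the 12 RNA-seq libraries (4 groups of 3, from the labels) were used; the 30 ChIP-seq samples were not analysed here. The authors used Trimmomatic on paired-end reads, HISAT2 against mm10 and featureCounts (2.0.3 per the file headers) on exons. What they deposited are untransformed counts for every gene, with no option for strand or fragments, so both reads of a pair count and intervals from totals would be too narrow. The paper compared mutants with control littermates by default and gives n = 3 per genotype, but does not tie library numbers to litters. No source says whether libraries of a group came from separate animals, so p-values measure only the spread between these libraries. Each gene ID was matched to a symbol by RefSeq's gene table (GRCm38.p6; 25275 of 27179).

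Tests were edgeR 4.0.16 quasi-likelihood F tests (R 4.3.3) over all genes after filterByExpr and TMM normalization, with Benjamini-Hochberg adjustment (FDR). A call needed an FDR below 0.05 and a log2 fold change beyond 0.5 either way, the interaction at FDR only. Genotypes were compared within each population, populations within each genotype. Libraries of the same number correlated, after subtraction of group means, at 0.101 to 0.125 in c-Kit+, 0.266 to 0.49 in Thy1+ and 0.134 to 0.298 between controls, all over the limit of 0.1 for pairing. Between mutants 1 of 3 and in the interaction 10 of 18 pairs passed. Alternatives were the edgeR exact test, DESeq2 1.42.0, its size factors in edgeR, library size only, the geometric mean of 11 germ cell markers, no filter, at least 1 CPM in 3 libraries, all 12 libraries in 1 fit, the FDR alone, the replicate block and each library left out. The steps were tested on simulated data.

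Named were the 10 members, partners called in c-Kit+ cells, the partner with the highest mean CPM of each list, the 2 genes nearest to each member, and Chd8, Thy1 and Kit as label checks. Members and lists were chosen with earlier results of these data known. The gene ratios, the neighbours and the printed promoters were chosen after values were seen.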

Additional observations from a re-analysis of the deposited data

How the results depend on the processing

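In c-Kit+ cells 6 of the 10 genes were called under each alternative and with any 1 library left out, except with scaling to the germ cell markers (2 called) and without a minimum fold (8). With germ cell scaling the sign turned for Prkdc (0.00079), Chek2 (0.12), Trp53bp1 (0.035) and Rnf8 (0.14). Of the calls over all genes, 8.87% were then lower ones, in place of 33.3%. Germ cell scaling also turned Atm (0.063), Chek1 (0.050), Trp53bp1 (0.15), Topbp1 (0.12) and Brca1 (0.030) in Thy1+ cells. Between controls it left 0 calls and turned Prkdc (0.10), Chek2 (0.43), Trp53bp1 (0.20), Rnf8 (0.017) and Topbp1 (0.059), and between mutants it turned Atm (0.24), Atr (0.19), Prkdc (0.083), Chek1 (0.18), Chek2 (0.27), Trp53bp1 (0.32), Rnf8 (0.29), Topbp1 (0.48) and Brca1 (0.094). The median level of the 10 genes became 190.7 CPM in mutant Thy1+, 205 CPM in control c-Kit+ and 149 CPM in mutant c-Kit+ cells, in place of 138, 269 and 162 CPM. Of the calls over all genes, 25.5% were lower ones between controls (36.3% with library size only, 2.06% with germ cell scaling). Between mutants this share of the calls was 24.7% (36.7% and 1.37%).

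With library size only, Rnf8 in Thy1+ cells stood at −0.024, Mdc1 between mutants at −0.068, and 1 gene was called between mutants. Without a minimum fold 8 were called between controls and 1 between mutants. Mdc1 between mutants was −0.028 in 1 fit of all libraries. The interaction of Trp53bp1 was −0.069 with DESeq2 and with its size factors, −0.010 with library size only, −0.12 with germ cell scaling and −0.027 without a filter.

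With the replicate block 1 of the 10 genes was called in Thy1+ cells and 1 in the interaction (Mdc1, −0.70, FDR = 0.0371), where the numbers did not pair the libraries. Over all 18002 genes the blocked interaction gave 24 calls with a negative and 422 with a positive difference. The block changed no other count of calls among the 10. Over all genes in Thy1+ cells, where edgeR's quasi-likelihood test called none, the block gave 856 lower and 558 higher, DESeq2 331 and 53, the exact test of edgeR 290 and 29, and 1 fit of all libraries 236 and 14.

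With 1 library left out, 2 to 6 genes were called between controls and 0 to 3 between mutants. Values ran from −0.081 to 0.12 for Rnf8 in Thy1+ cells, from −0.10 to 0.030 for Chek2 between controls, from −0.13 to 0.0049 for Topbp1 and from −0.072 to 0.086 for Mdc1 between mutants, and in the interaction from −0.036 to 0.33 for Prkdc, from −0.43 to 0.035 for Brca1 and from −0.13 to 0.10 for Trp53bp1. The cause of these changes was not tested.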
